A study of Arabidopsis thaliana with 8 samples.

Results

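RCA, LHCB4.1 and PORB are 3 nuclear genes of photosynthesis, 1 each from carbon fixation, light harvesting and chlorophyll synthesis, and their RNA was measured in roots of Arabidopsis thaliana. They were taken by name, and each is represented by the probe set that names it alone (RCA is locus AT2G39730, LHCB4.1 is AT5G01530 and PORB is AT4G27440). The platform table pairs each with 1 such probe set, so there are 3 genes of the 13356 that a probe set names on its own. The 4 groups were fit plants without iron (fit -Fe), fit plants with iron (fit +Fe), WT plants without iron (WT -Fe) and WT plants with iron (WT +Fe), with 2 arrays each. All plants spent 14 days on Gamborg's B5 medium and then 3 days on agar that held either 300 µM of the chelator ferrozine and no added iron, or 50 µM Fe(III)-EDTA. The fit genotype is named for FIT, a transcription factor that drives iron uptake in the root epidermis. The labels give no allele or background accession, and no probe set names FIT alone, so the mutation was not checked here. Replicates are called biological in the labels, which say nothing of how many plants were pooled.

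Rubisco activase, encoded by RCA, is an ATPase that frees the active sites of Rubisco from bound sugar phosphates. LHCB4.1 encodes an isoform of CP29, a monomeric antenna protein that sits between the photosystem II core and its outer antenna. PORB encodes a light-dependent protochlorophyllide oxidoreductase, which makes chlorophyllide from protochlorophyllide. Genes of this kind are mainly leaf genes, but roots kept in light can form some green plastids. Photosystem I and the cytochrome b6f complex hold iron in iron-sulfur clusters and haems, and an iron enzyme acts in chlorophyll synthesis upstream of protochlorophyllide. The 3 proteins studied here do not themselves bind iron as a catalytic cofactor.

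Values are RMA signal on a linear scale, and log2 fold changes come from limma fitted to all 8 arrays and 22746 probe sets, with p-values adjusted over all of them and a call at an adjusted p under 0.05. The array medians lay between 111.9 and 117.8. The replicate 2 arrays of both groups without iron stood apart in a measure of RNA quality. Their 3' to 5' signal ratio of control transcripts (actin, GAPDH and ubiquitin, geometric mean) was 5.22 in fit -Fe and 3.08 in WT -Fe, against 1.07 to 1.53 on the other 6 arrays. Of 20 listed root markers, the root hair expansins EXPA7 and EXPA18 were measured, with signals between 161 and 593. Their summed signal was 424 and 357 in fit -Fe, against 989 and 872 in fit +Fe. In WT it was 1091 and 717 without iron, against 938 and 547 with iron, so it was lowest in fit -Fe. The log2 iron response of EXPA7 was -1.28 in fit (limma adjusted p = 0.321) and 0.45 in WT. That of EXPA18 was -1.23 in fit (limma adjusted p = 0.313) and 0.14 in WT. Neither gene passed in either genotype. Their part in the results below was not tested. The array cannot tell fewer cells of a type from less RNA per cell.

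Over the 7 comparisons of the design, RCA was the gene with the steadiest pattern, at about the same level in both genotypes and lower in both without iron. LHCB4.1 was lower on average without iron, with replicates that overlapped in fit. PORB was lower in WT roots without iron, and in fit roots without iron its replicates lay on opposite sides of the iron-supplied ones. None of the 3 passed the adjusted threshold in any of the 7 comparisons. The share of all probe sets called in either direction was 0.202% for the iron response in fit, 0.431% for that in WT and 0.624% for the mean of both. For genotype it was 0.273% without iron, 0.00879% with iron and 0.154% for the mean, and it was 0.0747% for the difference of the iron responses. At an unadjusted p under 0.05, the only one of the 3 was RCA, in the iron response of fit, of WT and of their mean, and the shares of all probe sets there were 8.52%, 7.2% and 12.8%.

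RCA had signals of 124 and 115 in fit -Fe roots, against 179 and 203 in fit +Fe roots. In WT it had 124 and 131 without iron, against 189.6 and 206 with iron. All 4 arrays without iron were thus below all 4 arrays with iron, a pattern that 4.42% of all probe sets showed. Group means were 119 ± 6.41 in fit -Fe, 191 ± 16.4 in fit +Fe, 128 ± 5.56 in WT -Fe and 198 ± 11.5 in WT +Fe (SD, n = 2 each). Ordered by level, WT +Fe and fit +Fe overlapped, as did WT -Fe and fit -Fe, and the gap lay between the iron supplies.

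**Figure D1:**
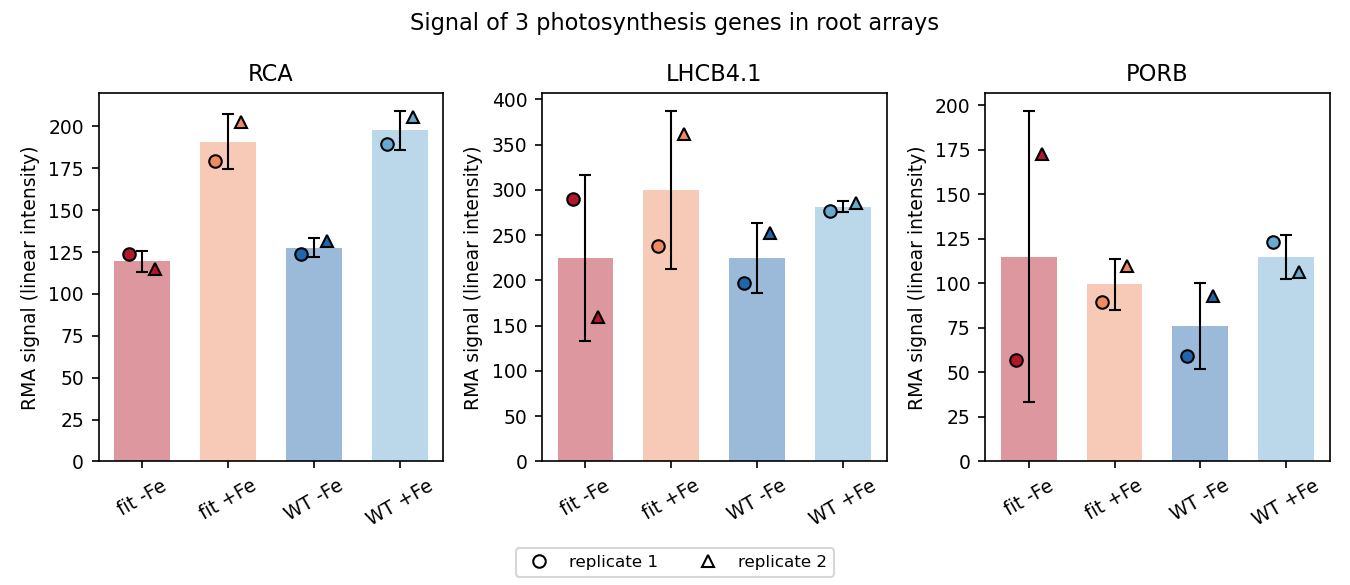
RMA signal (linear intensity, axis from 0) of RCA, LHCB4.1 and PORB in the 4 groups; bars are means of 2 arrays, error bars SD, circles replicate 1 and triangles replicate 2. RCA without iron lies between 115 and 131 and with iron between 179 and 206, while the fit -Fe replicates of PORB lie at 57.2 and 173.

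The log2 fold change of RCA without iron was -0.67 in fit (SE 0.17, 95% interval -1.07 to -0.28), a 1.60-fold lower level, with a limma adjusted p of 0.317. In WT it was -0.63 (SE 0.17, interval -1.03 to -0.23), 1.55-fold lower, with a limma adjusted p of 0.373. Without overlap of the groups, 16.4% of all probe sets were lower in fit and 19.3% in WT. Averaged over both genotypes, RCA was 1.57-fold lower (log2 -0.65, SE 0.12, interval -0.93 to -0.37), which ranked 220 of 22746 by p and did not pass (limma adjusted p = 0.0742). This mean response passed under 3 of the 19 alternatives and did not pass under the other 16. It was -0.68 without fit -Fe replicate 1 (limma adjusted p = 0.0440), -0.65 with a replicate block (limma adjusted p = 0.0388) and -0.66 with the log2 control ratio as a covariate, chosen after the data were seen (limma adjusted p = 0.0415). In these fits 3.13%, 2.18% and 2.32% of all probe sets were called, against 0.624% in the fit reported here.

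RCA differed between genotypes by less than its error. The difference of fit from WT was -0.09 without iron (interval -0.49 to 0.30) and -0.05 with iron (interval -0.45 to 0.35). The iron response in fit minus that in WT was -0.04, with an interval from -0.61 to 0.52, so differences almost as large as the response itself lie inside the interval. The residual SD of RCA was 0.090 on the log2 scale, lower than that of all but 5.87% of probe sets, and limma's shared spread raised it to 0.172. Its replicates differed by no more than 0.18 in any group. The slope of RCA on the control ratio was -0.01 (log2 per unit of ratio, SE 0.05, limma adjusted p = 0.924). From replicate 1 to the high-ratio replicate 2, RCA went from 124 to 115 in fit -Fe and from 124 to 131 in WT -Fe. Without the arrays of ratio over 2 its mean response was -0.65. Both of those arrays are without iron, and the part of RNA quality in RCA's response was not tested.

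LHCB4.1 had signals of 290.0 and 160.0 in fit -Fe roots, against 238 and 362 in fit +Fe roots. In WT it had 197 and 252 without iron, against 277 and 286 with iron. The groups overlapped in fit and did not in WT. Group means were 225 ± 91.9 in fit -Fe, 300 ± 87.1 in fit +Fe, 225 ± 38.8 in WT -Fe and 281 ± 6.22 in WT +Fe (SD, n = 2 each). By linear mean each group overlapped its neighbour in the order of levels, with fit -Fe and WT -Fe practically tied. By mean log2 signal WT -Fe came above fit -Fe and next to WT +Fe, which it did not overlap. The fit -Fe arrays alone spanned the range of all but fit +Fe replicate 2.

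The iron response of LHCB4.1 was -0.45 in fit (log2, SE 0.32, interval -1.19 to 0.30, limma adjusted p = 0.721) and -0.34 in WT (SE 0.32, interval -1.08 to 0.41, limma adjusted p = 0.922). The mean of both was -0.39 (SE 0.23, interval -0.92 to 0.14, limma adjusted p = 0.523). The size in fit depended on single arrays: the response was -0.02 without fit -Fe replicate 2, the array with the highest control ratio, and -0.88 without fit -Fe replicate 1. In WT it was -0.16 without WT -Fe replicate 1 and -0.51 without WT -Fe replicate 2. The iron response in fit minus that in WT was -0.11 (interval -1.17 to 0.94), and it was 0.50 without the arrays of ratio over 2. The difference of fit from WT was -0.05 without iron (interval -0.80 to 0.70) and 0.06 with iron (interval -0.68 to 0.81).

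The 2 other CP29 genes were measured as well. LHCB4.2, the second main isoform, had signals of 31.9 and 26.8 in fit -Fe, against 28.4 and 33.0 in fit +Fe, and of 28.9 and 26.2 in WT -Fe, against 34.0 and 38.3 in WT +Fe. The groups overlapped in fit and did not in WT. Its response was -0.06 in fit and -0.39 in WT (SE 0.19 each), and neither passed. LHCB4.2 was dim, with a mean log2 signal under 4.96, the 25th percentile of all probe sets. LHCB4.3, a more distant isoform, had -0.05 in fit and 0.03 in WT (SE 0.26 each). Cross-hybridisation between the isoforms was not tested.

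PORB had signals of 57.2 and 173 in fit -Fe roots, against 89.2 and 109.6 in fit +Fe roots. In WT it had 59.1 and 93.1 without iron, against 123 and 106 with iron. The replicate 1 arrays without iron were the lowest of all 8, fit -Fe replicate 2 was the highest, and in WT the groups did not overlap. Group means were 115 ± 81.8 in fit -Fe, 99.4 ± 14.4 in fit +Fe, 76.1 ± 24.0 in WT -Fe and 115 ± 12.1 in WT +Fe (SD, n = 2 each). Ordered by mean level, each group overlapped the next, and the order of the means differed between the linear and the log2 scale.

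The iron response of PORB was 0.01 in fit (log2, SE 0.47, interval from -1.09 to about as far above 0, limma adjusted p = 0.998) and -0.63 in WT (SE 0.47, interval -1.72 to 0.47, limma adjusted p = 0.883). The mean of both was -0.31 (SE 0.33, interval -1.08 to 0.47, limma adjusted p = 0.735). The difference of fit from WT was 0.42 without iron (interval -0.67 to 1.52) and -0.21 with iron (interval -1.31 to 0.89), and the difference of the iron responses was 0.63 (interval -0.92 to 2.18). Each of these intervals includes 0 and reaches a difference of more than 2-fold in at least 1 direction. The residual SD of PORB was 0.624, above that of 97.1% of probe sets.

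**Figure D2:**
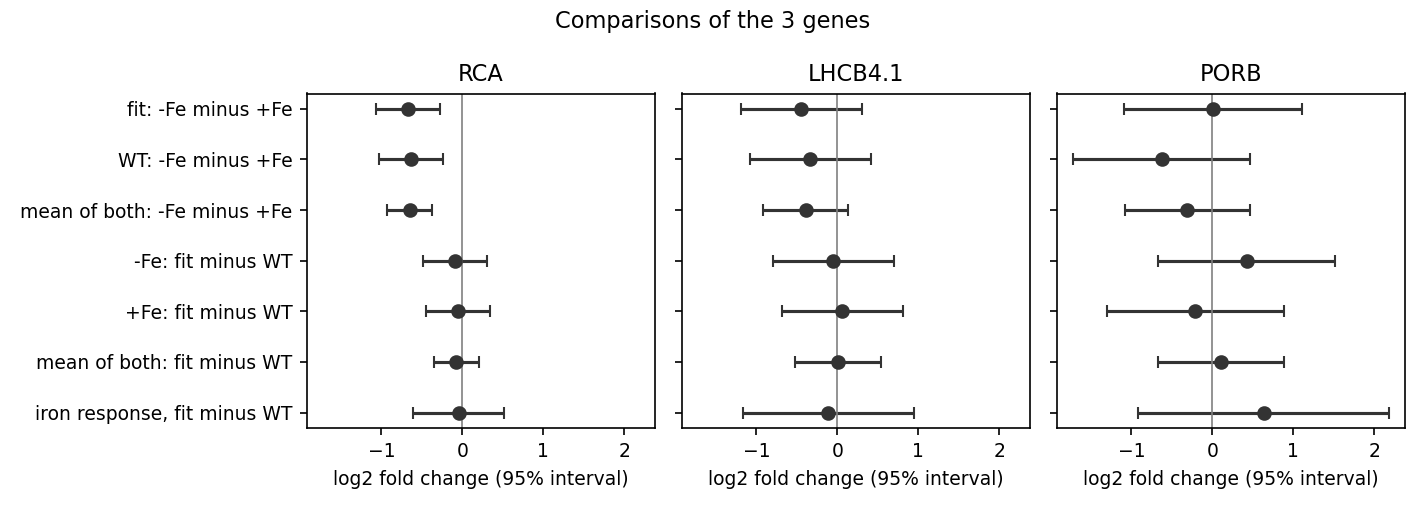
Log2 fold changes (x axis) of RCA, LHCB4.1 and PORB in the 7 comparisons (rows), with 95% intervals from limma; the vertical line marks 0. The intervals of RCA for iron lie below 0 before adjustment for 22746 probe sets, and all intervals of LHCB4.1 and PORB include 0.

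In both groups without iron PORB was higher on replicate 2, the array of high control ratio, by 3.02-fold in fit and 1.58-fold in WT. In fit, 98.5% of probe sets differed less between these replicates. The log2 signal of PORB went up by 0.41 per unit of the control ratio (SE 0.05, limma adjusted p = 0.00489), in the fit that held the ratio beside the groups. A slope in that fit uses only differences between replicates of the same group. The ratio differed far more between replicates in both groups without iron, most in fit -Fe, so the slope rests mainly on these pairs. Such slopes were frequent, since 18.5% of all probe sets passed in either direction and 8.24% with a positive slope. With the ratio held, the iron response of PORB was -0.84 in fit (limma adjusted p = 0.139) and -0.91 in WT (limma adjusted p = 0.0367), and its mean over genotypes was -0.87 (limma adjusted p = 0.0170). These PORB values depend on the slope, and so mainly on the same replicate pairs. In that fit 0.607%, 1.45% and 1.85% of all probe sets were called for these 3 comparisons. Without fit -Fe replicate 2 alone the response in fit was -0.79 (limma adjusted p = 0.656), and without fit -Fe replicate 1 it was 0.80. In WT it was -0.95 without WT -Fe replicate 2 and -0.30 without WT -Fe replicate 1.

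Markers of shoot tissue also stood high on the array where PORB was highest. Of 10 listed shoot genes outside photosynthesis, 3 were measured: YAB3 and YAB5, transcription factors of leaf polarity, and FAMA, a regulator of guard cells. Their summed signal was 69.0 and 113.5 in fit -Fe, 89.2 and 76.4 in fit +Fe, 68.2 and 83.1 in WT -Fe, and 71.6 and 82.5 in WT +Fe. None was at 0, and none passed in the iron response of either genotype. YAB5 and FAMA were dim, with mean log2 signals of under 4.96, the 25th percentile of all probe sets. That array also had the highest control ratio, and the slopes on the ratio were 0.18 for YAB3, 0.21 for YAB5 and 0.14 for FAMA, none of which passed by limma. Their part in the PORB values was not tested.

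**Figure D3:**
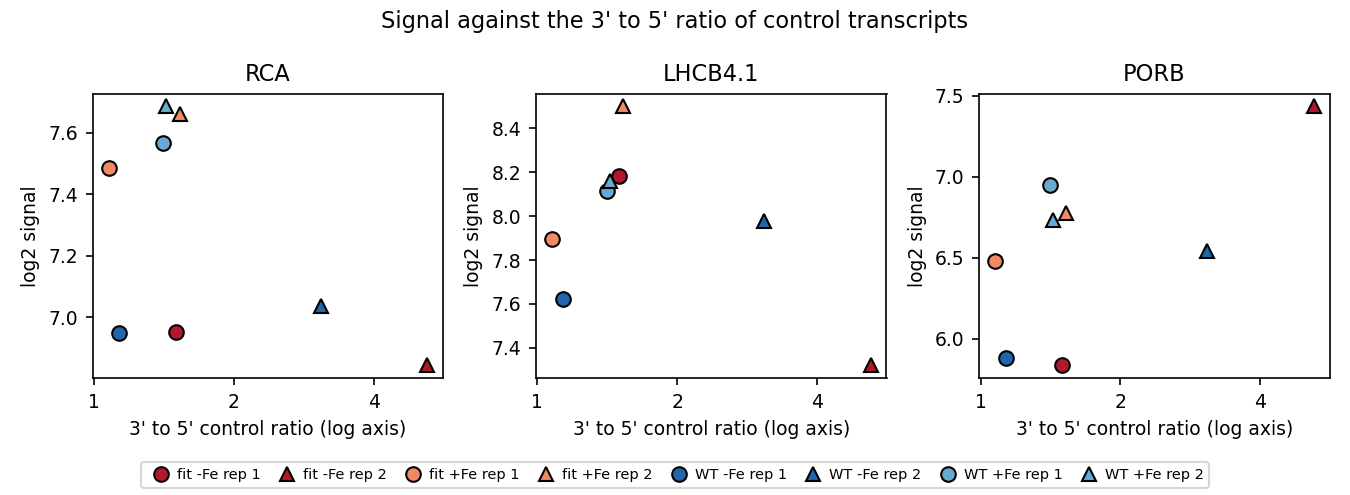
Log2 signal (y axis) of RCA, LHCB4.1 and PORB against the 3' to 5' ratio of control transcripts (x axis, log scale), 1 point per array, coloured by group, circles replicate 1 and triangles replicate 2. The fit -Fe replicate 2 array, at a ratio of 5.22, is the highest of 8 for PORB and the lowest for RCA and LHCB4.1.

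The 3 genes did not share 1 pattern across the 8 arrays. RCA and LHCB4.1 had a Pearson's r of 0.69 and a Spearman's rho of 0.69, RCA and PORB 0.25 and 0.19, and LHCB4.1 and PORB -0.20 and -0.12. These are descriptions over 8 arrays that hold 4 groups and the 2 arrays of high ratio. Among 6019 brighter probe sets naming 1 gene, those most like RCA had r between 0.967 and 0.989 and were AT2G47320, AT3G52760, AT5G62890, AT3G02530 and AT5G11420. These genes were chosen for their likeness over the same arrays, so their lower values without iron follow from the choice, with log2 fold changes from -1.18 to -0.25 in fit and from -1.20 to -0.29 in WT. Most like LHCB4.1, with r between 0.927 and 0.952, were AT1G21560, AT1G17360, AT1G55460, ACS, known for activating acetate to acetyl-CoA, and AT4G38500. Most like PORB, with r between 0.942 and 0.959, were CHL, a lipocalin of the chloroplast, GSTU20, a glutathione transferase, AT2G42950, AT2G46600 and AT4G21700.

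The other nuclear photosynthesis genes were read from 6 lists with 113 genes, of which 27 were measured, 24 of them beside RCA, LHCB4.1 and PORB. The term is used broadly: 12 of the 27 come from the list of tetrapyrrole and chlorophyll synthesis. That list also holds early tetrapyrrole steps, which are not particular to photosynthesis. Whether each isoform on the other lists, such as ATPC2 or PGK2, serves photosynthesis in these roots was not tested. In the iron response 0 of 27 passed in fit and 0 of 27 in WT by limma. At an unadjusted p under 0.05, 2 of 27 were lower in fit and 5 of 27 in WT, against 4.83% and 3.36% of all probe sets. In the higher direction there were 1 in fit and 0 in WT, against 3.69% and 3.84%. Without overlap between the groups, 4 of 27 were lower in fit and 13 of 27 in WT, against 16.4% and 19.3% of all probe sets, and 4 and 3 were higher, against 19.4% and 18.9%. RCA, LHCB4.1 and PORB are among the 13 in WT, and RCA is among the 4 in fit. Negative values were found for 17 of 27 in fit and 16 of 27 in WT, against 45.3% and 51.4% of all probe sets. The median log2 fold change of the 27 was -0.13 in fit and -0.12 in WT, against 0.03 and -0.01 over all probe sets. For the mean of both genotypes, 20 of 27 values were negative, with a median of -0.11 against 0.02 over all probe sets, where 47.4% were negative, and 1 of the 27 passed, against 0.229% of all probe sets called lower. At an unadjusted p under 0.05, 7 were lower and 2 higher in that mean, against 6.96% and 5.85% of all probe sets. Without RCA, LHCB4.1 and PORB, 15 of 24 values were negative in fit, 13 of 24 in WT and 17 of 24 in the mean. The medians of these 24 were -0.10, -0.05 and -0.10. Without overlap between the groups, 3 of the 24 were lower in fit and 10 in WT, and 4 and 3 were higher. At an unadjusted p under 0.05, 1 of the 24 was lower in fit, 4 in WT and 6 in the mean, and 1, 0 and 2 were higher.

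**Figure D4:**
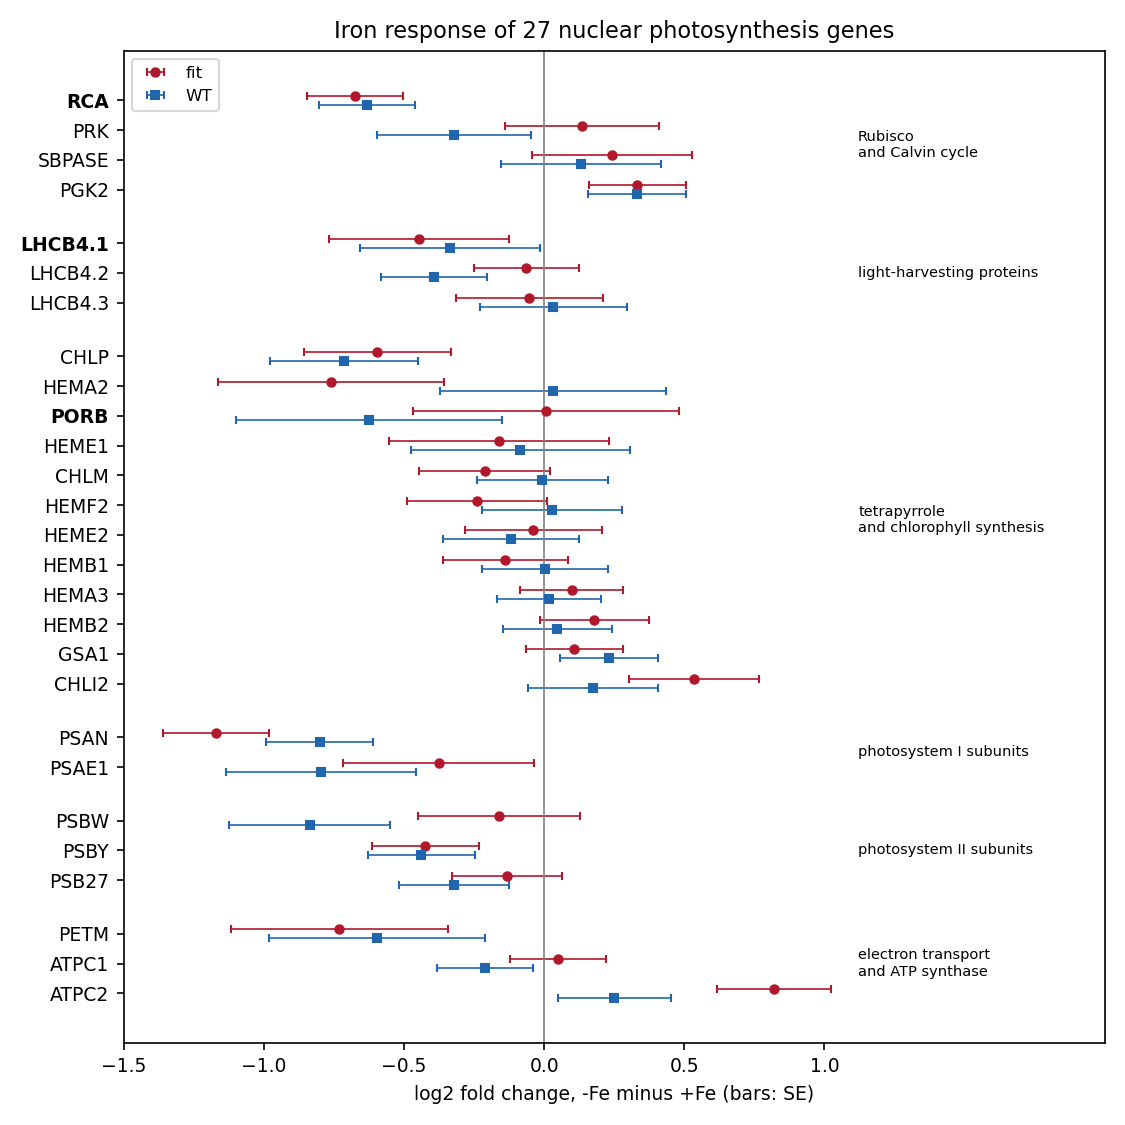
Log2 fold change without iron minus with iron (x axis, bars SE) of 27 nuclear photosynthesis genes, in fit (red circles) and WT (blue squares), grouped by role; RCA, LHCB4.1 and PORB are in bold. PSAN lies lowest in fit, at -1.17, and ATPC2 highest in fit, at 0.82.

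The gene that passed was PSAN, a small subunit of photosystem I on the lumen side where plastocyanin docks. It had 41.2 and 51.7 in fit -Fe, against 106 and 102 in fit +Fe, and 53.5 and 51.9 in WT -Fe, against 99.6 and 84.5 in WT +Fe. No array without iron reached the level of any array with iron, as for RCA. The mean response was -0.99 (SE 0.13, limma adjusted p = 0.0241), with -1.17 in fit (limma adjusted p = 0.0954) and -0.80 in WT (limma adjusted p = 0.265). The call was lost without any 1 of the WT or fit +Fe arrays, with adjusted p-values between 0.0899 and 0.172 and values between -1.04 and -0.93, and it stayed without either fit -Fe array. The second measured subunit of that complex, PSAE1, had -0.38 in fit and -0.80 in WT (SE 0.34 each), and it had a slope on the control ratio of 0.27 (SE 0.05, limma adjusted p = 0.0125).

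Besides RCA and PSAN, PSBY and CHLP had all 4 arrays without iron below all 4 with iron, which makes 4 of 27 against 4.42% of all probe sets. Without RCA, LHCB4.1 and PORB it was 3 of 24. PSBY, a small membrane protein of photosystem II, had a mean response of -0.43 (SE 0.14, limma adjusted p = 0.249). CHLP, the geranylgeranyl reductase that makes the phytol tail of chlorophyll, had -0.65 (SE 0.19, limma adjusted p = 0.207). In the opposite direction there was 1 of 27, GSA1, an aminotransferase of early tetrapyrrole synthesis, against 4.73% of all probe sets.

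The 3 other measured genes on the list of Rubisco and the Calvin cycle had values nearer to 0 than RCA in both genotypes. PRK, the phosphoribulokinase that regenerates the substrate of Rubisco, had 0.14 in fit and -0.32 in WT (SE 0.27 each). SBPASE, the sedoheptulose bisphosphatase, had 0.24 and 0.13 (SE 0.29 each) and AT1G56190, a plastid phosphoglycerate kinase listed as PGK2, had 0.33 in both (SE 0.17), and none of the 3 passed. PRK and SBPASE were dimmer than RCA, with signals of 26.8 to 49.1 and of 31.9 to 56.1, against 115 to 206. RMA narrows differences of dim probe sets. The difference between RCA and the 3 other genes was not tested. No Rubisco small subunit gene is named alone by a probe set.

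PORB was 1 of 12 measured genes of tetrapyrrole and chlorophyll synthesis. None of the 12 passed in either iron response, against 0.202% of all probe sets in fit and 0.431% in WT. At an unadjusted p under 0.05 there were 0 of 12 in fit and 1 of 12 in WT, CHLP, against 8.52% and 7.2% of all probe sets. Their mean responses ran from -0.65 for CHLP to 0.35 for CHLI2, a subunit of magnesium chelatase, and 8 of 12 were negative. CHLI2 was dim, with a mean log2 signal under 4.96, the 25th percentile of all probe sets. HEMA2, an isoform of glutamyl-tRNA reductase at the start of the pathway, had the lowest value in fit, at -0.76 (SE 0.40), with a signal of 63.0 on fit -Fe replicate 2 and 165 on replicate 1. Its slope on the control ratio was -0.34 (SE 0.05, limma adjusted p = 0.00769), opposite in sign to that of PORB.

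Of the photosystem II and electron transport genes, PSBW, a small subunit of photosystem II, had -0.16 in fit and -0.84 in WT (SE 0.29 each), and PETM, a small subunit of the cytochrome b6f complex, had -0.73 and -0.60 (SE 0.39 each). PETM also had a positive slope on the control ratio, of 0.32 (SE 0.05, limma adjusted p = 0.00802). ATPC2, a gamma subunit of the chloroplast ATP synthase had values in the other direction, with 183 and 240.2 in fit -Fe, against 109.8 and 129 in fit +Fe. Its response was 0.82 in fit (SE 0.20, limma adjusted p = 0.303) and 0.25 in WT (SE 0.20), and ATPC1, the main gamma subunit, had 0.05 and -0.21 (SE 0.17 each).

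In the genotype comparisons 0 of the 27 genes passed by limma with iron and 0 without iron, against 0.00879% and 0.273% of all probe sets. At an unadjusted p under 0.05 there were 0 with iron and 1 without, ATPC2, at 0.70 (SE 0.20, limma adjusted p = 0.511), against 1.84% and 5.13% of all probe sets. In the mean genotype difference 0 of 27 passed, against 0.154% of all probe sets, with 1 at an unadjusted p under 0.05, against 4.12%. The difference of the iron responses had 0 of 27 both after adjustment and at an unadjusted p under 0.05, against 3.25% of all probe sets at that unadjusted threshold.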

How the data were processed

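Biotin-labelled root RNA of 8 samples was hybridised to Affymetrix arrays, per the labels' protocols. The authors deposited RMA values per the submitters' processing notes, with no version stated there, and a joint normalisation of the arrays is not stated either. These deposited intensity values lay between 7.13 and 21060 on a linear scale, so log2 was taken before testing. RMA narrows differences of dim probe sets.

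Of 22810 probe sets, 64 controls were left out. Of the 22746 tested, 13513 named 1 gene by the annotation table of the array, updated with RefSeq symbols (used for names only), 503 named several and 8730 were unnamed here. No genome build is named for the array, so no coordinates are given, and no sequences were used here. Group means were fitted in 1 model with limma 3.58.1 in R 4.3.3 (4 residual and 3.82 prior degrees of freedom) and Benjamini-Hochberg adjustment. The 2 arrays per group limit the precision. The fit was tested on simulated data. The simulated noise was independent between arrays and probe sets, so that test did not cover RNA quality differences between arrays. The 3 genes and all gene lists (6 of photosynthesis, regulators, root type electron carriers, shoot, root and reference genes) were chosen with earlier results of these data known. Every measured list gene could be named, and so could the 5 genes most like each of the 3. The alternatives were renormalisation, median centring, other variance models and array weights, filters, a pseudocount of 16, the control ratio as a covariate or for exclusion, fits to 4 arrays, a replicate term and each array left out.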

Additional observations from a re-analysis of the deposited data

How the results depend on the processing

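Of 548 recomputed values of the 3 genes' comparisons and the list counts, 487 stayed the same. Of the rest, 39 changed sign, 6 gained a call and 16 were list counts that moved. For a gene, the same means its direction and side of the threshold, and for a list count the same number called. Many of the unchanged counts stayed at 0, as every count in the genotype comparisons did. RCA and LHCB4.1 kept negative iron responses in fit, in WT and in the mean under every alternative run. Each gene has 1 probe set, so a mean over probe sets gave no other value. Unless stated, the cause was not tested. With the replicate block, RCA's mean iron response was -0.65 and gained a call (limma adjusted p = 0.0388, over all its alternatives 0.0388 to 0.372), and the block changed no other call of the 3 genes. Replicates of equal number deviated together in every pair of groups (r from 0.131 to 0.659), but with 2 numbers and no label on what they share they were not taken as pairs. With the log2 control ratio as a covariate, chosen after the data were seen, RCA's mean response was -0.66 (limma adjusted p = 0.0415), PORB's -0.85 (limma adjusted p = 0.0323) and PORB's response in fit -0.79. With the linear ratio, PORB's responses were -0.84 in fit, -0.91 in WT and -0.87 in the mean. Without the arrays of ratio over 2, PORB's response in fit was -0.79.

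Genotype values near 0 changed sign. Without iron, LHCB4.1 in fit against WT was 0.11 with the linear ratio, 0.027 with its log2 and 0.56 without the arrays of ratio over 2, where RCA was 0.0049 and PORB -0.048, and PORB was -0.093 with the linear ratio. PORB's mean genotype difference was -0.13 with the linear ratio, -0.13 without those arrays and -0.048 with the log2 ratio, and LHCB4.1's was -0.0049 after median centring. The difference of the iron responses was 0.056 for RCA and 0.50 for LHCB4.1 without those arrays, and 0.060 for LHCB4.1 with the linear ratio. List genes called in fit were 2 with either ratio covariate (PSAN and PETM; 0.607% of all probe sets with the linear ratio, 0.646% with its log2) and 1 with the block (PSAN; 0.637%). In WT they were 2 with the linear ratio (PORB and PSAE1; 1.45% of all probe sets) and 2 with its log2 (PSAE1 and PETM; 1.68%). In the mean response they were 4 with the linear ratio (1.85% of all probe sets), 5 with its log2 (2.32%), 3 without the arrays of ratio over 2 (PSAE1, PSAN and PETM, 0.897%) and 3 with the block (RCA, CHLP and PSAN, 2.18%). With each array left out they were 0 to 3, and the shares of all probe sets ran from 0.189% to 3.13%.

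With each array left out, RCA's mean iron response ran from -0.70 to -0.61, its genotype difference with iron from -0.14 to 0.036 and its difference of the iron responses from -0.13 to 0.045. For LHCB4.1 the genotype difference ran from -0.24 to 0.36 with iron, from -0.48 to 0.38 without and from -0.21 to 0.22 in the mean, and the difference of the responses from -0.54 to 0.32. For PORB the response ran from -0.79 to 0.80 in fit and from -0.71 to 0.090 in the mean, the genotype difference from -0.38 to 1.22 without iron and from -0.29 to 0.51 in the mean, and the difference of the responses from -0.17 to 1.43. The limits of these PORB ranges come from leaving out either fit -Fe array.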

Other observations

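Of the other lists, the regulators had 1 of 15 genes measured, HYH, a light-signalling bZIP factor, whose iron response was 0.02 in fit and 0.14 in WT (log2, SE 0.23 each, not called by limma). None of the 3 root type plastid electron carriers was measured. Of the 9 reference genes 4 were measured, and their mean iron responses lay between -0.11 for GAPC2 and 0.05 for UBC21. In that mean 0 of the 4 were called by limma and 0 had an unadjusted p under 0.05, against 0.624% and 12.8% of all probe sets.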
